A study of Homo sapiens with 12 samples.

Results

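This is a comparison of gene expression in RPMI2650 cells after exposure to perfluorohexanoic acid (PFHxA) with that in control cells, over all genes with enough reads to be tested. It used 8 of the 12 RNA-seq libraries of the series, 4 per group, and 16554 of the 50868 genes in the count table. RPMI2650 is an established human epithelial line from a tumour of the nasal septum, described in the labels as wild type and as a model of nasal epithelium; a single line was used, cultured at an air-liquid interface. PFHxA was given at 1 µM for 7 days. The treatment label of the control libraries is Control alone, with no vehicle, dose or day recorded. The remaining 4 libraries were exposed to perfluorobutanoic acid (PFBA), an acid of the same kind with a shorter chain, at the same 1 µM for 7 days; they entered the fit and are used below only to place the PFHxA values. Libraries are named by group and by the letter of their column, a to d. Separate cultures are not stated for the libraries within a group, so that p-values measure the spread between these samples, which may be technical.

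Perfluoroalkyl carboxylic acids have a fully fluorinated carbon chain that ends in an acid group. Their shape resembles that of a fatty acid, and in liver the longer members are known as ligands of the nuclear receptor PPARα, which switches on genes of fatty acid oxidation. They are carried across membranes by organic anion and fatty acid transporters. At the nasal surface the cells that meet such compounds form an epithelium that rests on a basement membrane and is joined by tight and adherens junctions. The genes are therefore described from the cell cycle and the nucleus outward, through protein synthesis and metabolism, to stress and immune genes, signalling, matrix and cytoskeleton.

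Epithelial keratins were abundant. KRT7 was at 752 ± 34.5 CPM per kilobase of transcript (CPM, the count scaled to library size, divided by transcript length, so that levels of different genes can be compared; mean ± SD, n = 4) in control and 795 ± 21.8 with PFHxA, and KRT5, a basal keratin, was at 759 ± 13.5 and 802 ± 29.3. Other epithelial and basal markers ranged widely on that scale. In control the epithelial genes KRT19 and EPCAM were at 258 ± 4.93 and 25.1 ± 1.35, and the epithelial cadherin CDH1 at 1.73 ± 0.357. The basal keratin KRT17, named after its values were seen, was at 177 ± 9.98 in control and the basal regulator TP63 at 0.386 ± 0.101. The mesenchymal filament gene VIM was also expressed, at 258 ± 43.5 in control, while COL1A1 was at 0.315 ± 0.0542. The summed level of the 20 mesenchymal and fibroblast markers ranged from 889 to 957.3 in control, and that of the 13 basal markers from 1009 to 1043. Both sums rest mainly on a few abundant genes. Highest of the mesenchymal list was S100A4, named after its values were seen, at 550 ± 38.6 in control, followed by VIM. Of those 20 markers 11 had enough reads to be tested. KRT5 and KRT17 were the highest of the basal list. Of the 17 secretory markers 6 had 0 counts in all 8 libraries, the club cell gene SCGB1A1 among them, and TFF3 was at 14.3 ± 2.15 in control. Of the 19 ciliated markers 4 had 0 counts, and FOXJ1 was at 2.94 ± 0.128 in control. The leukocyte gene PTPRC had 2 counts in the 4 control and 3 counts in the 4 PFHxA libraries. The summed level of the 18 leukocyte and endothelial markers ranged from 4.025 to 4.922 in control and from 4.041 to 5.39 with PFHxA, and that of the 17 epithelial markers from 1201 to 1284 and from 1255 to 1320. Over all 7 cell type lists, 1 of 15 tested epithelial genes (EPCAM, lower) and 1 of 12 basal genes (BCAM, higher) passed the test. These shares are 6.67% and 8.33%, against 14.9% of all genes tested, and both genes are named here after their values were seen. The epithelial fall was not called when control a, control d, PFHxA b, PFHxA c or PFHxA d was left out. The basal list held 1 rise whichever library was left out. In a fit with the trend of each library over GC content and transcript length removed, 0 genes of the 7 lists were called. In bulk RNA, fewer cells of a type and less RNA per cell cannot be told apart.

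Total counts of the 8 libraries ran from 16941599 (control d) to 21508681 (control a). Mitochondrial transcripts took 10.9% ± 1.253 of the counts in control, with control d lowest at 9.15%, and 12.6% ± 0.575 with PFHxA, with PFHxA a lowest at 11.7% (exact permutation test, two-sided, p = 0.0571). Relative to the mean of all 12 libraries, gene levels rose with transcript GC content in all 4 PFHxA libraries (slopes of 0.0706 to 0.104 on the log2 scale per 10 points of GC) and fell with it in all 4 control libraries (-0.0661 to -0.0132; exact permutation p = 0.0286, the smallest that 4 against 4 allows; adjusted p = 0.0715 over 5 library measures). The slope over transcript length was separated in the same way (-0.0273 ± 0.0244 in control and 0.0194 ± 0.00514 with PFHxA per doubling; exact permutation p = 0.0286, adjusted p = 0.0715). The source of these slopes was not tested, and no batch is given in the labels. The groups of genes below are therefore given with their counts from a second fit, in which the trend of each library over GC content and length was removed.

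With PFHxA, 1006 genes rose and 1460 fell at an edgeR adjusted p under 0.05, which is 14.9% of the 16554 tested (6.08% higher, 8.82% lower). The changes were small. The median change was 1.17-fold among genes that rose and 1.24-fold among those that fell, and 8 rises and 9 falls were at least 2-fold. Against a minimum change of 1.2-fold, edgeR called 0 rises and 8 falls. Libraries of the 2 groups did not overlap for 3420 genes (20.7%), and 4719 genes (28.5%) had an unadjusted p under 0.05. In the fit with the trend removed, 433 genes passed (2.62%), of which 153 were higher (0.924%) and 280 lower (1.69%). Of the genes called in the first fit, 106 rises and 272 falls were called in both fits in the same direction, and 0 were called in opposite directions. The fitted sign of 17 called rises and 71 called falls turned when the trend was removed. Another 47 rises and 8 falls were called in the second fit only. The number of calls lay between 1523 (without PFHxA b) and 2308 (without PFHxA a) when 1 library was left out. Together with removal of the trend, leaving out PFHxA b left 108 calls and leaving out control d left 223. Calls in a list of genes are read against the 14.9% of all genes (6.08% higher, 8.82% lower). Those of the trend-removed fit are read against 2.62% (0.924% higher, 1.69% lower). Left-out libraries are named beside list counts of 3 or more that they moved by over 1.5 times; the smaller counts, of 0 to 2, lay between 0 and 3 in those fits.

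**Figure D1:**
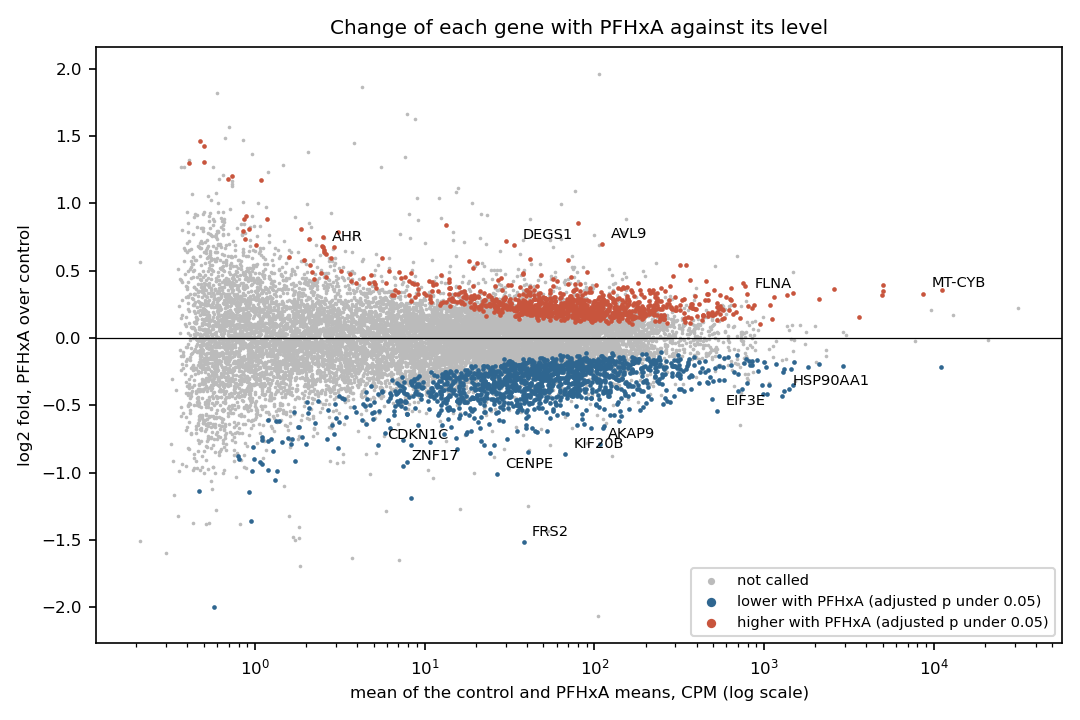
Each point is a gene, with its mean level over the 8 libraries in CPM on a log axis and its log2 fold change, PFHxA minus control; colours mark genes that rose, fell or did not pass at an adjusted p under 0.05, and 10 genes outside the plotted range, 2 of them called, are not drawn. Most called genes lie close to 0, and FRS2 is the lowest of the labelled genes at -1.52.

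Highly expressed genes passed more often: above a mean of 100 CPM, 17.3% rose and 16.3% fell, whereas under 1 CPM 0.564% rose and 0.512% fell. The gene lists below were not matched to all genes for level, so that lists of abundant genes can hold more calls for that alone. Of 13469 protein-coding genes 7.25% rose and 9.96% fell. Of 937 long noncoding genes 0.854% rose and 2.45% fell, and of 1207 pseudogenes 0.994% rose and 6.71% fell, whose reads may be shared with parent genes. The chromosomes differed too: on chromosome 4, 16.3% of 571 genes fell and 3.15% rose, and on chromosome 22, 1.46% of 412 fell and 8.50% rose. With the trend removed these became 1.75% and 0.525% on chromosome 4 and 0.485% and 1.46% on chromosome 22.

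Direction followed base composition. In the 10% of genes with the lowest transcript GC content (median 36.95%), 34.9% fell and 0.182% rose; in the 10% with the highest (median 64.06%), 0.243% fell and 12.1% rose. The median GC content was 55.6% among genes that rose, 39.53% among those that fell and 49.08% among the rest. After the trend was removed, 5.22% of the lowest 10% fell and 1.52% rose. To show how far these transcripts differ, a stretch of 120 coding bases is given for members from both ends of the range, read from the middle of the coding sequence of the longest GENCODE 29 transcript, with G and C in capitals. CENPE and KIF20B fell, LAMA5 and AGRN rose, and the positions count from the first base of the start codon. The CENPE stretch (bases 3991 to 4110) holds 42 G or C, that of KIF20B (2671 to 2790) 31, that of LAMA5 (5482 to 5601) 76 and that of AGRN (2836 to 2955) 82. Other genes, read in the same way but not shown, lay closer together in part. FRS2 and ATRX, which fell, hold 50 and 49, and SLC7A5 and NOTCH1, which rose, hold 56 and 77.
CENPE: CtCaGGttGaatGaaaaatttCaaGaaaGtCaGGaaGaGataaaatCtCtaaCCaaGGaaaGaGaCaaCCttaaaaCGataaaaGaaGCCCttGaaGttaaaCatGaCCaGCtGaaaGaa
KIF20B: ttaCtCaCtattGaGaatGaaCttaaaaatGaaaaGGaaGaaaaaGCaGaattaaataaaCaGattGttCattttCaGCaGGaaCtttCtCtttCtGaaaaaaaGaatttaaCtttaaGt
LAMA5: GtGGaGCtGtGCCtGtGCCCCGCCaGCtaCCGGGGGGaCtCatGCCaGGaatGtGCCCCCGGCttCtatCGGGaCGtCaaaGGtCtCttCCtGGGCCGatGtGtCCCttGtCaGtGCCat
AGRN: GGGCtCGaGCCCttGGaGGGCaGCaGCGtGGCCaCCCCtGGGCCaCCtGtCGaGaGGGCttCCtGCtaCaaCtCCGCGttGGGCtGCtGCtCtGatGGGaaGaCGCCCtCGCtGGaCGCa

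**Figure D2:**
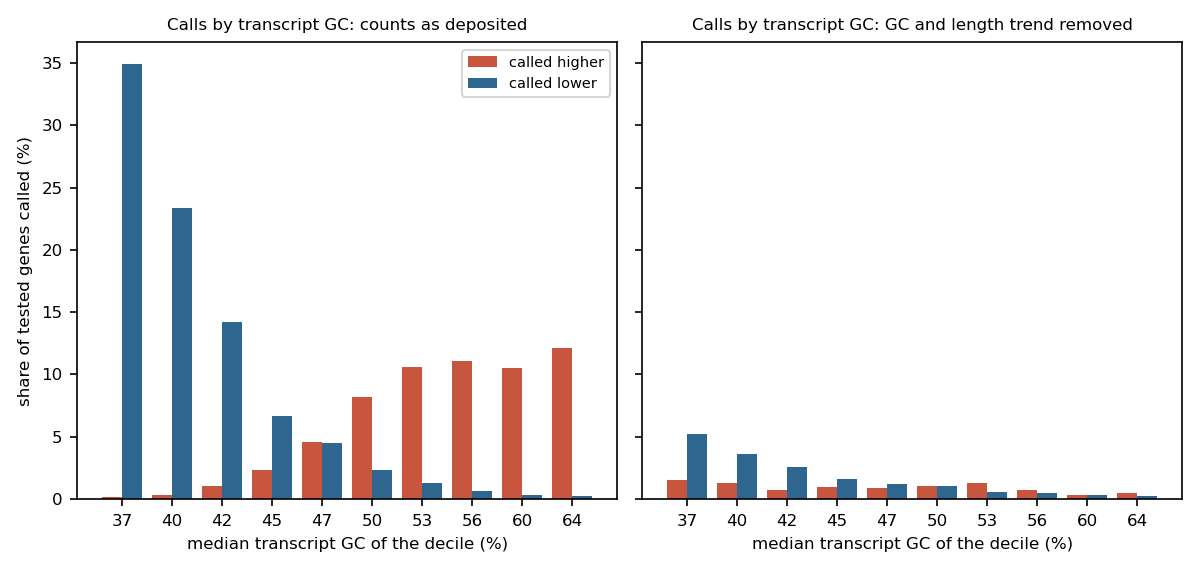
The share of genes called higher and lower with PFHxA (%) in 10 bins of equal size by transcript GC content, before and after the trend over GC content and length was removed. Falls reach 34.9% in the lowest bin and rises 12.1% in the highest; after removal they are 5.22% and 0.486%.

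Among called protein-coding genes with a mean of at least 1 CPM and no overlap of the groups, the largest fall was that of FRS2 (chromosome 12, 69470349 to 69579789 on GRCh38, protein coding), an adaptor that couples fibroblast growth factor receptors to MAP kinase signalling. FRS2 was at 58.3, 56.6, 56.01 and 55.6 CPM in control libraries a to d and at 20.4, 18.9, 20.7 and 19.2 CPM with PFHxA (log2 fold -1.52, SE 0.24, adjusted p = 0.0037). All 4 PFHxA libraries lay near a single level, below every control. Among the PFBA libraries, a to c were at 56.7, 55.5 and 57.1 CPM, as in control, and PFBA d was at 22.6 CPM, near the PFHxA level. The fall remained with the trend removed (log2 fold -1.36, adjusted p = 0.0226).

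CENPE, the kinetochore motor that moves chromosomes to the spindle equator, followed after C7orf25, which is given below beside PSMA2. It was at 40.95, 36.7, 32.2 and 32.3 CPM in control and 26.3, 14.9, 14.2 and 15.1 CPM with PFHxA (log2 fold -1.01, SE 0.18, adjusted p = 0.00469). No overlap of the groups was a condition of its choice, and PFHxA a stood well above PFHxA b to d. The same library also held the highest PFHxA level of KIF20B, a kinesin of cytokinesis (95.9, 85.6, 87.7 and 78.5 CPM in control, 66.4, 41.6, 40.95 and 42.5 CPM with PFHxA; log2 fold -0.86, SE 0.14, adjusted p = 0.00309). AKAP9, a scaffold protein of Golgi and centrosome, showed it again (148.4, 143.5, 134.8 and 118.7 CPM in control, 112.2, 63.2, 70 and 70.9 CPM with PFHxA; log2 fold -0.79, SE 0.16, adjusted p = 0.0085). SGO2, which protects centromeric cohesin, fell from 19.8 ± 2.19 to 11.2 ± 1.397 CPM (adjusted p = 0.00117). All 4 genes kept their call with the trend removed, with log2 folds of -0.86, -0.67, -0.70 and -0.59.

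Other large falls were of genes with diverse roles. ESF1, a nucleolar protein of ribosomal RNA processing, was at 51.9 ± 3.79 CPM in control and 28.9 ± 6.59 CPM with PFHxA (log2 fold -0.84, adjusted p = 0.00193), and MNS1, a component of ciliary and flagellar axonemes, at 10.3 ± 0.2696 CPM in control and 5.46 ± 1.41 CPM with PFHxA (log2 fold -0.92, adjusted p = 0.00177). ZNF17, a zinc finger gene, was at 8.96, 8.47, 11.5 and 10.5 CPM in control and 6.01, 3.65, 3.69 and 6.97 CPM with PFHxA (log2 fold -0.95, SE 0.19, adjusted p = 0.00642). CDKN1C, the cyclin-dependent kinase inhibitor p57, was at 6.58, 6.08, 6.9 and 7.53 CPM in control and 5.57, 3.698, 3.46 and 2.87 CPM with PFHxA (log2 fold -0.80, SE 0.19, adjusted p = 0.0147), and its fold did not shrink when the trend was removed (log2 fold -0.87, adjusted p = 0.0326). FSIP2, a sperm fibrous sheath protein, fell at a low level, from 2.23 ± 0.202 to 1.19 ± 0.182 CPM (adjusted p = 0.00306). PDC, a phosducin that binds G protein subunits, was at 1.78 ± 0.338 CPM in control and 0.905 ± 0.147 CPM with PFHxA (log2 fold -0.99, adjusted p = 0.00731), and SCEL, a precursor of the cornified envelope, at 1.59 ± 0.3201 CPM in control and 0.805 ± 0.294 CPM with PFHxA (log2 fold -0.98, adjusted p = 0.0318). Neither passed with the trend removed (adjusted p = 0.103 and 0.154), and SCEL lost its call in 4 of the 8 fits that left out 1 library (without each of control a, control d, PFHxA b, PFHxA d).

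Among the largest rises, AVL9, a protein of late secretory traffic, was at 99.6, 82.5, 88.5 and 68.2 CPM in control and 135.8, 137.1, 140.2 and 136.5 CPM with PFHxA (log2 fold 0.70, SE 0.13, adjusted p = 0.00521); the 4 PFHxA libraries were nearly alike and the controls spread widely. AVL9 shares exon sequence with a pseudogene on the opposite strand, and reads of the 2 cannot be told apart without a known strand setting. LY6G5C, of the LY6 family of surface proteins, was at 1.56 ± 0.157 CPM in control and 2.604 ± 0.272 CPM with PFHxA (log2 fold 0.74, adjusted p = 0.0126). MSN (moesin), which links actin to the plasma membrane, was at 14.9, 17.1, 13.8 and 12.96 CPM in control and 18.7, 23.5, 23.2 and 21.9 CPM with PFHxA (log2 fold 0.57, SE 0.10, adjusted p = 0.00253). All 3 of these genes kept their call with the trend removed.

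Several large rises rested on less. DEGS1, which makes the last step of ceramide synthesis, was at 24.9, 25.2, 27.1 and 25.9 CPM in control and 45.5, 46.2, 45.6 and 28.9 CPM with PFHxA (log2 fold 0.69, SE 0.18, adjusted p = 0.0257), so that a single PFHxA library lay close to the controls. MRTFB, a coactivator of serum response factor, was at 58.9, 44.9, 42.3 and 83.02 CPM in control and 99.9, 101, 106.4 and 106.8 CPM with PFHxA (log2 fold 0.85, SE 0.24, adjusted p = 0.0411). Here the PFHxA libraries were tight and the controls ranged about as widely as the difference. FRMD5, a FERM domain protein of cell contacts, was at 0.775 ± 0.132 CPM in control and 1.26 ± 0.173 CPM with PFHxA (log2 fold 0.69, adjusted p = 0.0474), and the leukotriene B4 receptor LTB4R at 2.003 ± 0.371 CPM in control and 3.12 ± 0.4 CPM with PFHxA (log2 fold 0.64, adjusted p = 0.0212). When 1 library was left out, the call was lost in 8 of 8 fits for FRMD5, in 7 for MRTFB (all but the fit without control d), in 6 for DEGS1 (without each of control a, control b, control d, PFHxA a, PFHxA b, PFHxA c) and in 3 for LTB4R (without each of control a, control c, PFHxA c). SYNE3, a nesprin that ties the nucleus to the cytoskeleton, was at 2.27 ± 0.463 CPM in control and 3.94 ± 0.539 CPM with PFHxA (log2 fold 0.79, adjusted p = 0.0108) and the filopodial myosin MYO10 at 1.899 ± 0.245 CPM in control and 3.05 ± 0.513 CPM with PFHxA (log2 fold 0.69, adjusted p = 0.0163); both kept their call in all 8 such fits. With the trend removed, MRTFB, FRMD5, LTB4R, SYNE3 and MYO10 did not pass (adjusted p between 0.08 and 0.127) and DEGS1 did (adjusted p = 0.041). Their log2 folds in that fit were 0.81 for MRTFB, 0.74 for FRMD5, 0.55 for LTB4R, 0.62 for SYNE3 and 0.55 for MYO10.

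**Figure D3:**
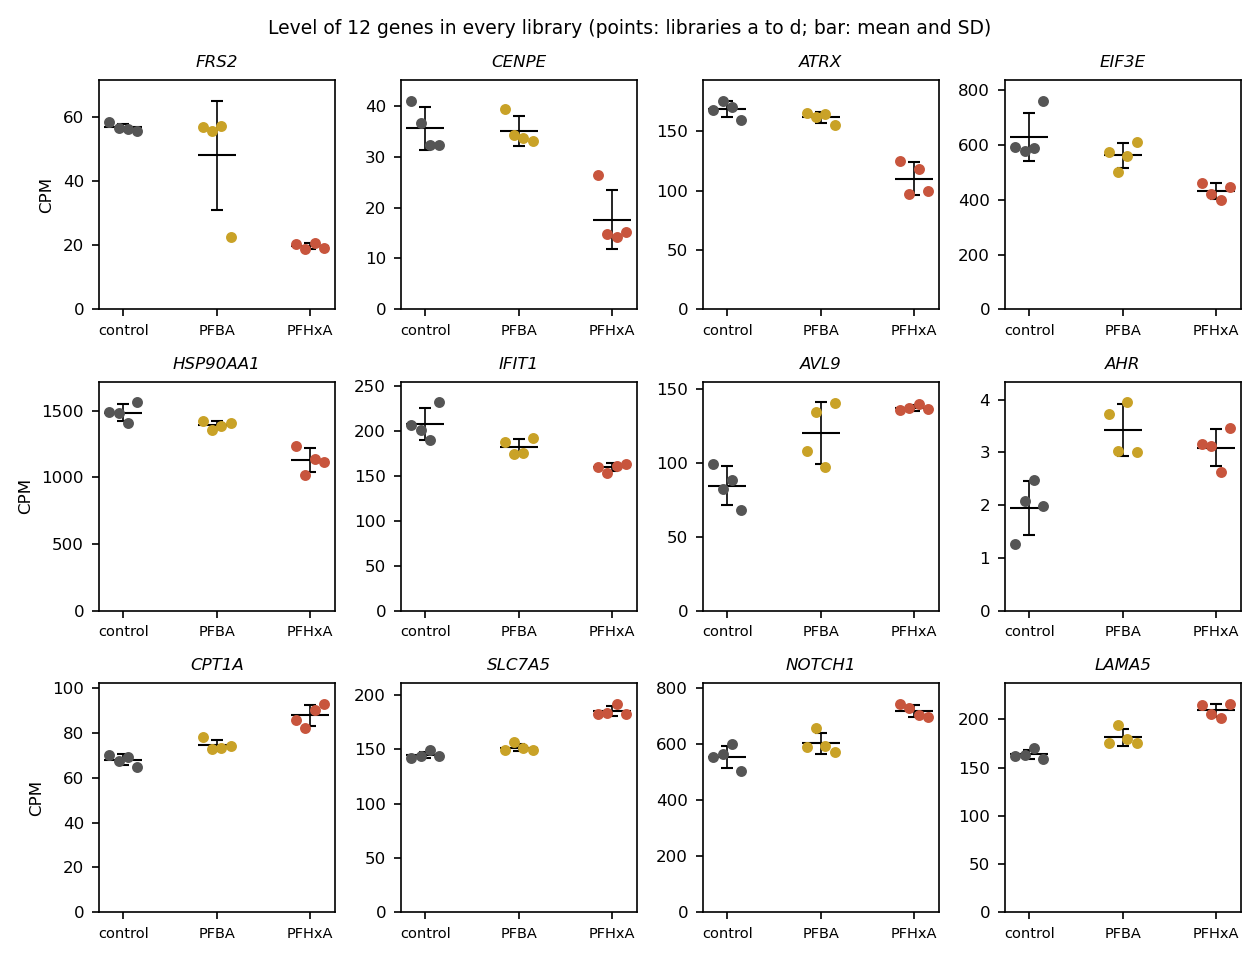
Levels of 12 genes in CPM, each panel with its own axis from 0; points are libraries a to d of each group, and bars give the mean and SD of 4. PFHxA lies below every control for FRS2, CENPE, ATRX, EIF3E, HSP90AA1 and IFIT1 and above every control for the other 6, and PFBA d alone is low among the PFBA libraries for FRS2. For FRS2, CENPE, AVL9 and AHR no overlap of the groups was a condition of their choice.

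**Figure D4:**
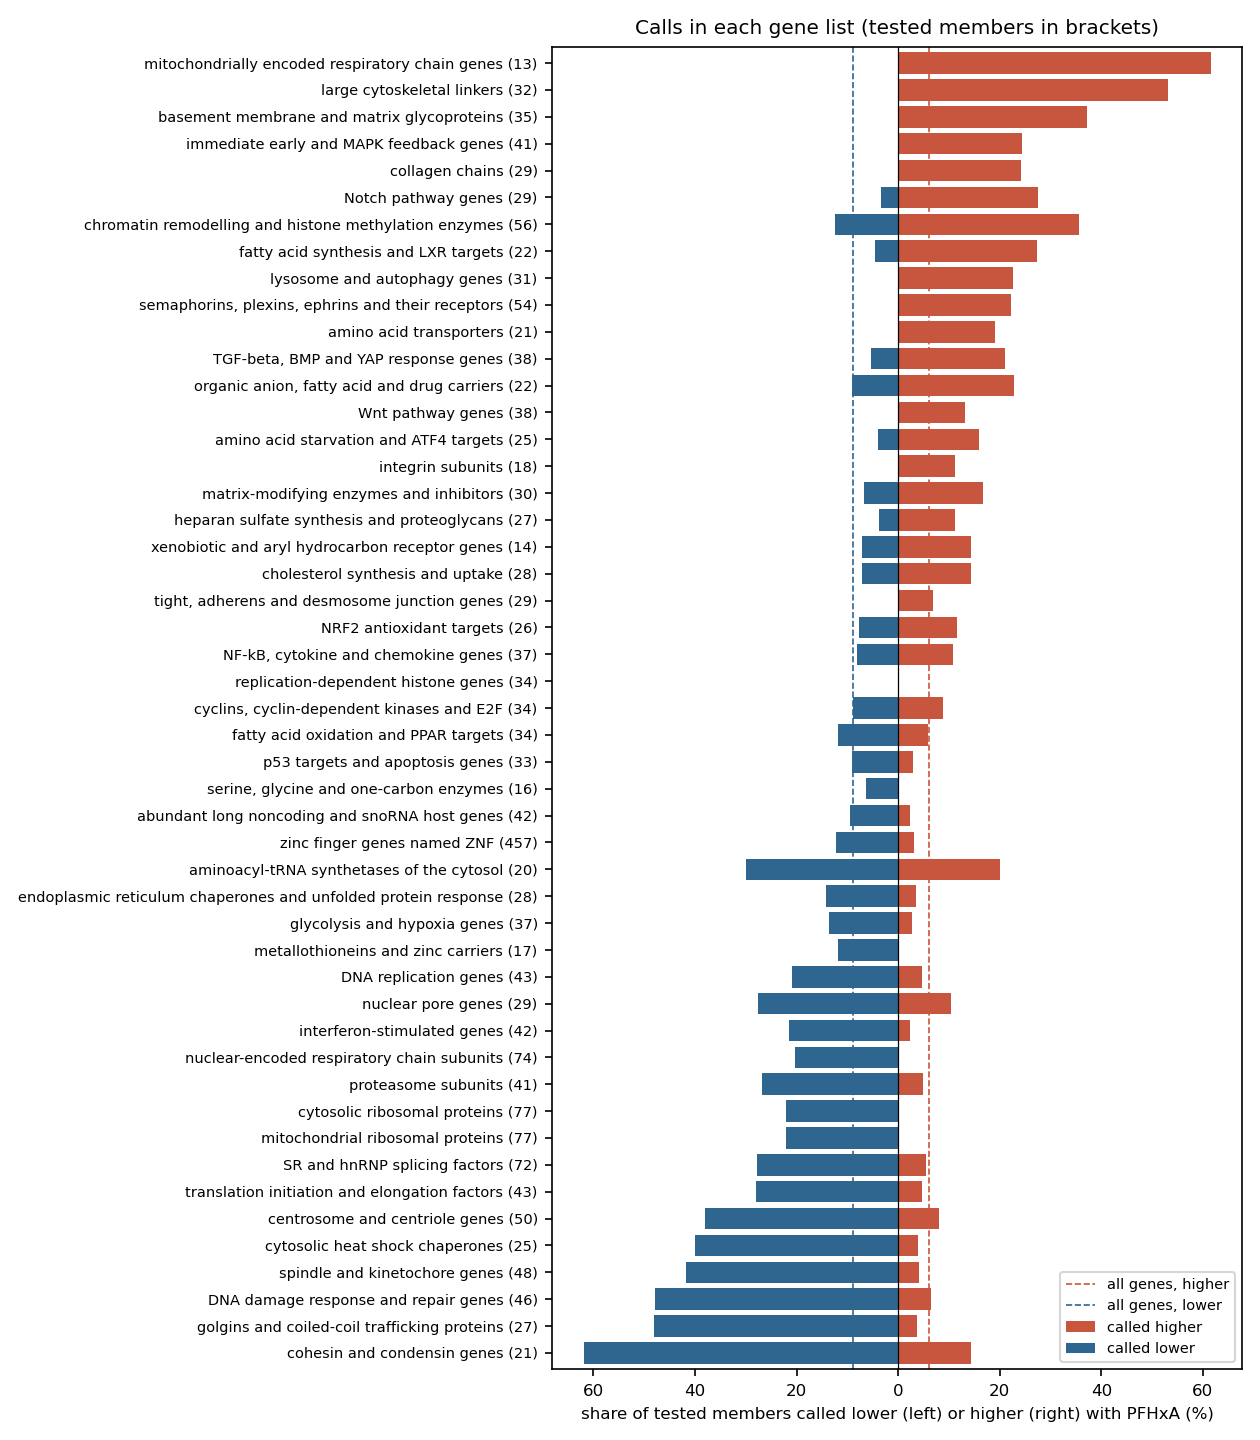
Share of the tested members (numbers in brackets) of each gene list that were called lower (left) or higher (right) with PFHxA, in percent; dashed lines give the shares over all genes, 8.82% lower and 6.08% higher. Cohesin and condensin genes, golgins, DNA repair and spindle genes lie at the low end and mitochondrially encoded genes, cytoskeletal linkers and basement membrane genes at the high end.

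Genes that fold, hold and move chromosomes fell in large numbers. Of 21 tested cohesin and condensin genes, 13 fell and 3 rose (76.2% called, against 14.9% of all genes), with a median log2 fold of -0.19. SMC2, a core subunit of both condensins, was at 72.7, 67.03, 65.8 and 62.1 CPM in control and 51.5, 43.4, 44.02 and 46.8 CPM with PFHxA (log2 fold -0.53, SE 0.064, adjusted p = 0.00113). Its partner SMC4 was at 226.5, 244.3, 216.1 and 227.3 CPM and 185.4, 134.7, 155.7 and 164.5 CPM (log2 fold -0.51, SE 0.075, adjusted p = 0.00161). Every PFHxA library lay below every control for both. 20 of 48 spindle and kinetochore genes fell and 2 rose (median log2 fold -0.14); KIF15, a spindle kinesin, was at 61.6, 62.9, 60.2 and 61.3 CPM in control and 49.8, 46.3, 44.8 and 45.8 CPM with PFHxA (log2 fold -0.40, SE 0.048, adjusted p = 0.00113), and NDC80, the microtubule anchor of the kinetochore, was at 36.7 ± 0.935 CPM in control and 27.1 ± 1.77 CPM with PFHxA (log2 fold -0.44, adjusted p = 0.00117). With the trend removed, 5 cohesin and condensin genes and 11 spindle genes were called lower, SMC2, SMC4, KIF15 and NDC80 among them, and 1 and 0 were higher. Median GC content of these lists was 40.7% and 41.1%.

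Centrosomes organise the spindle and the base of the cilium. 19 of 50 tested centrosome and centriole genes fell and 4 rose (median log2 fold -0.15, median GC content 42.1%). PCM1, the scaffold of centriolar satellites, was at 200.4, 190.3, 186.5 and 184.6 CPM in control and 161.9, 141.1, 144.6 and 146.3 CPM with PFHxA (log2 fold -0.36, SE 0.049, adjusted p = 0.00137). CEP162, which acts in assembly of the ciliary transition zone, was at 11.1 ± 0.498 CPM in control and 7.08 ± 1.11 CPM with PFHxA (log2 fold -0.65, adjusted p = 0.00199). Both genes and 4 others were lower with the trend removed (6 in all). The count of falls was 12 without PFHxA c.

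DNA repair genes fell more often than they rose, 22 against 3 of 46 tested (median log2 fold -0.18, median GC content 41.4%). RAD50, of the complex that holds broken DNA ends, was at 116.4, 110.1, 113.1 and 103.3 CPM in control and 90.1, 71.2, 79.95 and 83.9 CPM with PFHxA (log2 fold -0.45, SE 0.064, adjusted p = 0.00161). RIF1, which steers the choice of repair pathway, was at 143.6, 149.9, 134.3 and 131.9 CPM and 117.1, 95.8, 99.5 and 101.9 CPM (log2 fold -0.43, SE 0.063, adjusted p = 0.00161). For both genes PFHxA b was the lowest library, and neither group overlapped the other. 7 repair genes were lower and 1 higher with the trend removed, with log2 folds of -0.40 for RAD50 and -0.33 for RIF1. The falls came down to 14 without PFHxA c. In DNA replication 9 of 43 fell and 2 rose (25.6% called, against 14.9% of all genes). Among the falls were RFC1, the large subunit of the clamp loader (112.6 ± 6.73 CPM in control and 91.5 ± 5.15 CPM with PFHxA, log2 fold -0.30, adjusted p = 0.00295), and TOP2A, topoisomerase II of dividing cells (558 ± 31.1 CPM in control and 447.3 ± 32.4 CPM with PFHxA, log2 fold -0.32, adjusted p = 0.0037). With the trend removed 1 was lower, which was RFC1.

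Regulators of the cell cycle were called about as often as all genes in the first fit. Of 34 cyclins, kinases and E2F genes, 3 rose and 3 fell (17.6% called, near the 14.9% of all genes). FOXM1, a transcription factor of mitotic genes, was at 62.5, 65.4, 64.4 and 62.2 CPM in control and 72.2, 79.6, 76.3 and 80.5 CPM with PFHxA (log2 fold 0.28, SE 0.047, adjusted p = 0.00265), above every control. MYBL2, of the complex that switches on late cell cycle genes, was at 43.7 ± 2.02 CPM in control and 52.9 ± 1.96 CPM with PFHxA (log2 fold 0.28, adjusted p = 0.00345). In the trend-removed fit FOXM1 remained called (adjusted p = 0.0342) and MYBL2 did not (adjusted p = 0.0515). There 2 of the 34 members were higher and 1 lower, against 0.924% and 1.69% of all genes. Of 34 tested replication-dependent histone genes, 0 rose and 0 fell, with a median log2 fold of -0.070.

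In the chromatin list the larger number rose: 20 of 56 remodelling and histone methylation enzymes were higher and 7 lower (48.2% called). ATRX, a remodeller of repeat-rich chromatin, fell, with 167.8, 175.4, 170.5 and 159.5 CPM in control and 125.1, 96.95, 117.9 and 99.9 CPM with PFHxA (log2 fold -0.61, SE 0.072, adjusted p = 0.00113). Its transcript GC content is 36.8%. ATRX was lower with the trend removed too (log2 fold -0.50, adjusted p = 0.00479), and in the list 3 were higher and 3 lower.

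Factors of RNA processing and transport fell more often than they rose. Of 72 splicing factors 20 fell and 4 rose (median GC content 41.8%). PRPF18, a factor of the second splicing step, was at 17.4 ± 0.922 CPM in control and 12.03 ± 1.48 CPM with PFHxA (log2 fold -0.53, adjusted p = 0.00256). In the trend-removed fit 4 were lower and 1 higher, and PRPF18 did not pass (adjusted p = 0.0595). The count of falls in the first fit was 10 without control a, 10 without PFHxA b, 11 without PFHxA c and 12 without PFHxA d. 8 of 29 nuclear pore genes fell and 3 rose (5 without PFHxA c); AHCTF1, which seeds pore assembly on chromatin, was at 120.4 ± 7.35 CPM in control and 95.8 ± 6.61 CPM with PFHxA (log2 fold -0.33, adjusted p = 0.00286) and NUP35 of the inner ring at 19.2 ± 1.196 CPM in control and 12.8 ± 2.17 CPM with PFHxA (log2 fold -0.59, adjusted p = 0.00373). The rises of that list numbered 1 without PFHxA d, and 3 were lower and 0 higher with the trend removed. Among 457 zinc finger genes named ZNF, 56 fell and 14 rose (15.3% called, against 14.9% of all genes), with 12 lower and 1 higher after the trend was removed, and the falls numbered 31 without PFHxA b, 35 without PFHxA c and 37 without PFHxA d. The 2 with the smallest p were ZNF92 (21.7 ± 1.51 CPM in control and 13.2 ± 1.56 CPM with PFHxA, log2 fold -0.71, adjusted p = 0.00113) and ZNF354A (19.3 ± 0.687 CPM in control and 12.98 ± 1.28 CPM with PFHxA, log2 fold -0.57, adjusted p = 0.00128), and both remained called with the trend removed. Of 42 long noncoding and snoRNA host genes, 4 fell and 1 rose (11.9% called, against 14.9% of all genes); SNHG1, a host of small nucleolar RNAs, was at 45.6 ± 1.43 CPM in control and 33.8 ± 1.75 CPM with PFHxA (log2 fold -0.43, adjusted p = 0.00206) and LINC-PINT at 7.87 ± 0.818 CPM in control and 5.55 ± 0.793 CPM with PFHxA (log2 fold -0.50, adjusted p = 0.0122), and both stayed lower with the trend removed, where 3 were lower and 1 higher.

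Golgins are long coiled-coil proteins that tether vesicles. Of 27 golgins and related coiled-coil proteins 13 fell and 1 rose, at a median log2 fold of -0.21 and a median GC content of 40.5%. KTN1, a kinesin-binding protein of the endoplasmic reticulum, was at 227.6, 222.8, 213.1 and 216.6 CPM in control and 179.8, 134.6, 142.4 and 150.4 CPM with PFHxA (log2 fold -0.54, SE 0.071, adjusted p = 0.00128). TRIP11, a golgin of the cis-Golgi, was at 77.5, 75.95, 67.5 and 67.4 CPM and 56, 42.3, 50.6 and 45.5 CPM (log2 fold -0.57, SE 0.079, adjusted p = 0.00138). PFHxA a was again the library nearest to control in both, without reaching it. The trend-removed fit called 6 lower, KTN1 and TRIP11 included, and 0 higher. For SMC4, SGO2, KTN1 and MNS1, reads of a gene on the opposite strand that shares exon sequence cannot be told apart, since the strand setting of the counting is not given.

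Genes of the translation machinery fell more often than they rose. Of 43 initiation and elongation factors 12 fell and 2 rose (median GC content 46.4%). EIF3E, a subunit of the initiation factor that recruits the ribosome, was at 592.2, 577, 589.2 and 760.9 CPM in control and 462.3, 421.6, 398.1 and 447.6 CPM with PFHxA (log2 fold -0.54, SE 0.090, adjusted p = 0.00271). Control d was far above the other controls, and the call held without it (adjusted p = 0.00347). EIF1AX, which scans for the start codon, was at 92.8 ± 1.88 CPM in control and 78.4 ± 3.02 CPM with PFHxA (log2 fold -0.24, adjusted p = 0.00206), and with the trend removed its difference was -0.016 (adjusted p = 0.906), while EIF3E kept its call (-0.28, adjusted p = 0.0347). In that fit 4 were lower and 0 higher. The number of falls was 7 without PFHxA c.

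17 of 77 cytosolic ribosomal protein genes fell and 0 rose (22.1% called, against 14.9% of all genes), at a median log2 fold of -0.19. RPL36A was at 16.2 ± 0.601 CPM in control and 11.96 ± 1.245 CPM with PFHxA (log2 fold -0.43, adjusted p = 0.00347) and RPL26 at 880.4 ± 55.1 CPM in control and 697.4 ± 44.6 CPM with PFHxA (log2 fold -0.34, adjusted p = 0.00994); both share exon sequence with another gene on the same strand, and neither passed with the trend removed (adjusted p = 0.0562 and 0.0717). These falls depended on single libraries, with 9 without control d, 8 without PFHxA a, 6 without PFHxA b, 9 without PFHxA c and 11 without PFHxA d, and 2 were lower with the trend removed. In control d the median level of the list lay 0.16 above the control mean on the log2 scale, and in control a to c between -0.071 and -0.023. 17 of 77 mitochondrial ribosomal protein genes fell and 0 rose (22.1% called, against 14.9% of all genes, median log2 fold -0.11). MRPL1 was at 45.2, 43.9, 45.3 and 59.5 CPM in control and 30.6, 36.7, 25.7 and 28.9 CPM with PFHxA (log2 fold -0.67, SE 0.11, adjusted p = 0.00295), again with control d highest, and MRPL50 was at 38.7 ± 4.102 CPM in control and 27.3 ± 3.27 CPM with PFHxA (log2 fold -0.50, adjusted p = 0.00309). Left-out libraries gave 10 without control a, 11 without control d, 8 without PFHxA b and 10 without PFHxA d. The trend-removed fit called 2 lower and 1 higher, and neither MRPL1 nor MRPL50 passed (adjusted p = 0.0524 and 0.0976).

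The aminoacyl-tRNA synthetases, which load tRNAs, split: of 20 in the cytosol 4 rose and 6 fell. EPRS1, which charges glutamate and proline tRNAs, was at 348.3, 328.7, 333.8 and 346.8 CPM in control and 301.2, 274.5, 278.6 and 281.3 CPM with PFHxA (log2 fold -0.26, SE 0.039, adjusted p = 0.00177). EPRS1 kept its call with the trend removed (adjusted p = 0.00953); 0 were higher and 2 lower in that fit. The rises of the first fit numbered 2 without control a, 2 without PFHxA b and 2 without PFHxA d.

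Called chaperones were mostly lower. Of 25 cytosolic heat shock chaperones, 10 fell and 1 rose (median log2 fold -0.090). HSP90AA1, the inducible HSP90, was at 1488, 1485, 1404 and 1562 CPM in control and 1238, 1020, 1140 and 1118 CPM with PFHxA (log2 fold -0.40, SE 0.054, adjusted p = 0.00137). Its J-protein partner in HSP70 cycles, DNAJA1, was at 350 ± 4.78 CPM in control and 288.7 ± 12.4 CPM with PFHxA (log2 fold -0.28, adjusted p = 0.00203). HSP90AA1 changed little when the trend was removed (log2 fold -0.36, adjusted p = 0.00605), and DNAJA1 did not pass (adjusted p = 0.114); 2 members were lower. With a library left out, the falls numbered 6 without control d, 4 without PFHxA b, 6 without PFHxA c and 5 without PFHxA d. In the endoplasmic reticulum 4 of 28 chaperone and unfolded protein response genes fell and 1 rose (17.9% called, against 14.9% of all genes), and the falls numbered 2 without control a, 2 without control b, 2 without control d, 2 without PFHxA b, 2 without PFHxA c and 2 without PFHxA d. HSP90B1, the HSP90 of that compartment, was at 1655, 1516, 1541 and 1642 CPM in control and 1388, 1191, 1183 and 1138 CPM with PFHxA (log2 fold -0.37, SE 0.060, adjusted p = 0.00206), and ERN1, the sensor IRE1, was at 33.6 ± 2.82 CPM in control and 42.2 ± 1.66 CPM with PFHxA (log2 fold 0.33, adjusted p = 0.00417). Both kept their call with the trend removed (adjusted p = 0.0267 and 0.0484), and were the 1 member lower and the 1 higher there. HSP90AA1 and HSP90B1 share exon sequence with genes on the opposite strand, whose reads cannot be told apart.

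The proteasome, which degrades ubiquitinated proteins, had 11 falls and 2 rises among 41 subunits (31.7% called, against 14.9% of all genes). PSMA4, of the outer ring of the core, was at 106.3, 112.7, 101.1 and 120.6 CPM in control and 91.01, 80.7, 77.9 and 73.7 CPM with PFHxA (log2 fold -0.45, SE 0.073, adjusted p = 0.00234). PSMA2, from the same ring, was at 124, 133.8, 144.2 and 157.5 CPM and 98.99, 82.05, 95.6 and 79.99 CPM (log2 fold -0.65, SE 0.10, adjusted p = 0.00238). Both passed with the trend removed, where 3 were lower and 0 higher. The PSMA2 value is uncertain, since AC010132.3, a gene model that joins PSMA2 to its neighbour C7orf25, shares its exons on the same strand. Chosen, like C7orf25, after its values were seen, AC010132.3 was at 0.1399, 0.456, 0.0539 and 0.117 CPM in control and 0.0546, 15.9, 0.503 and 22.7 CPM with PFHxA. It was thus high in PFHxA b and d, the libraries with the lowest PSMA2, and near 0 in PFHxA a and c. C7orf25 was at 17.6, 14.8, 6.31 and 7.53 CPM in control and 4.48, 4.44, 5.36 and 6.03 CPM with PFHxA (log2 fold -1.19, adjusted p = 0.0388). How the counting divided reads between these 3 models was not tested. Of 31 lysosome and autophagy genes 7 rose and 0 fell (22.6% called, against 14.9% of all genes). ATG9A, the autophagy lipid scramblase, was at 66.4 ± 3.29 CPM in control and 80.4 ± 4.84 CPM with PFHxA (log2 fold 0.28, adjusted p = 0.0044), and PSAP, the saposin precursor, at 466.3 ± 10.02 CPM in control and 525.4 ± 20.6 CPM with PFHxA (log2 fold 0.17, adjusted p = 0.00745). Neither passed with the trend removed (adjusted p = 0.101 and 0.0806), where 1 member was higher and 0 lower, and the rises of the first fit numbered 4 without control a, 4 without control c, 4 without control d, 3 without PFHxA b and 4 without PFHxA d.

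Called respiratory chain genes were higher where mitochondrial DNA encodes them and lower where the nucleus does. Of the 13 genes encoded in mitochondrial DNA 8 rose (61.5% called), and of 74 subunits encoded in the nucleus 15 fell and 0 rose (20.3% called, against 14.9% of all genes). MT-CYB, of complex III, was at 8591, 8228, 7741 and 6005 CPM in control and 8980, 9853, 9881 and 9726 CPM with PFHxA (log2 fold 0.33, SE 0.087, adjusted p = 0.0222). MT-ND5, of complex I, was at 4769, 4810, 4482 and 3255 CPM and 5218, 6023, 5701 and 5762 CPM (log2 fold 0.39, SE 0.10, adjusted p = 0.0223). For both genes control d was the lowest library by far, and the lowest PFHxA library lay above the highest control. The 8 rises became 4 without control c, 0 without PFHxA b, 1 without PFHxA c and 0 without PFHxA d; MT-CYB lost its call without each of PFHxA b, PFHxA c, PFHxA d and MT-ND5 without each of PFHxA b, PFHxA d. NDUFA5, a nuclear subunit of complex I, was at 56.7, 52.2, 45.7 and 66.03 CPM in control and 37.04, 33.2, 30.4 and 36.04 CPM with PFHxA (log2 fold -0.69, SE 0.11, adjusted p = 0.00199), and ATP5PB, of the ATP synthase stalk, was at 221.1 ± 16.4 CPM in control and 168.1 ± 16.6 CPM with PFHxA (log2 fold -0.40, adjusted p = 0.00479). NDUFA5 passed with the trend removed (adjusted p = 0.0268), ATP5PB did not (adjusted p = 0.0533), and 2 nuclear and 1 mitochondrial genes were called there. The folds of the mitochondrial genes did not shrink in that fit: the median log2 fold of the list was 0.32 before and 0.42 after, with 0.42 for MT-CYB (adjusted p = 0.0528) and 0.48 for MT-ND5 (adjusted p = 0.0517). The nuclear falls numbered 7 without control d, 7 without PFHxA a, 7 without PFHxA b, 6 without PFHxA c and 8 without PFHxA d.

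In glycolysis and the hypoxia response 5 of 37 fell and 1 rose (16.2% called, against 14.9% of all genes). LDHB, a subunit of lactate dehydrogenase, was at 1340, 1420, 1395 and 1669 CPM in control and 1191, 976.6, 1028 and 1119 CPM with PFHxA (log2 fold -0.43, SE 0.074, adjusted p = 0.00271). HIF1A, the oxygen-regulated transcription factor, was at 257.5 ± 11.7 CPM in control and 223.2 ± 9.305 CPM with PFHxA (log2 fold -0.21, adjusted p = 0.00723), a difference that turned to 0.014 with the trend removed (adjusted p = 0.902). LDHB kept its call (adjusted p = 0.0158), and 4 members were lower and 0 higher.

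In the first fit targets of PPARα were called about as often as all genes. Of 34 fatty acid oxidation genes and PPAR targets, 2 rose and 4 fell (17.6% called), with a median log2 fold of 0.020. CPT1A, the gate of mitochondrial fatty acid uptake, was at 70.2, 67.6, 69.3 and 64.9 CPM in control and 85.7, 82.2, 89.95 and 92.8 CPM with PFHxA (log2 fold 0.37, SE 0.047, adjusted p = 0.00117). All 4 PFHxA libraries were above all controls, and with the trend removed CPT1A stayed higher (log2 fold 0.27, adjusted p = 0.00953). ACADM, a dehydrogenase of the same pathway, was lower, at 95.9 ± 1.88 CPM in control and 76.3 ± 8.16 CPM with PFHxA (log2 fold -0.33, adjusted p = 0.006); it did not pass with the trend removed (adjusted p = 0.17) and shares exon sequence with a gene on the same strand. In that fit 3 of the 34 members were higher and 0 lower, against 0.924% higher and 1.69% lower of all genes.

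Called genes of fatty acid synthesis were mostly higher. Of 22 fatty acid synthesis genes and LXR targets 6 rose and 1 fell (31.8% called, against 14.9% of all genes), and 0 and 0 did with the trend removed. SREBF1, the transcription factor of lipid synthesis, was at 73.6 ± 3.04 CPM in control and 89.8 ± 2.17 CPM with PFHxA (log2 fold 0.29, adjusted p = 0.00258), and FASN, fatty acid synthase, at 520.5 ± 18 CPM in control and 603.1 ± 14.4 CPM with PFHxA (log2 fold 0.21, adjusted p = 0.00728). Neither passed with the trend removed (adjusted p = 0.153 and 0.946), and the log2 fold of FASN became -0.0061. Of 28 cholesterol genes 4 rose and 2 fell (21.4% called, against 14.9% of all genes). SREBF2, which controls cholesterol synthesis, was at 480.4, 511.6, 500.6 and 439 CPM in control and 581.5, 576.2, 571.9 and 583.9 CPM with PFHxA (log2 fold 0.26, SE 0.049, adjusted p = 0.0044), whereas IDI1, an enzyme of that synthesis, was at 89.8 ± 4.596 CPM in control and 74.8 ± 1.36 CPM with PFHxA (log2 fold -0.26, adjusted p = 0.00256). After removal of the trend these 2 did not pass (adjusted p = 0.0901 and 0.1), and 1 cholesterol gene was higher.

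AHR, the receptor for dioxin-like compounds, was at 1.26, 2.08, 2.48 and 1.99 CPM in control and 3.17, 3.12, 2.63 and 3.46 CPM with PFHxA (log2 fold 0.67, SE 0.19, adjusted p = 0.0306; with the trend removed 0.80, adjusted p = 0.0473). AHR is among the largest rises, for which no overlap of the groups was a condition of choice. At this low level the call was lost without each of control a, control d, PFHxA a, PFHxA b, PFHxA d. Of 14 xenobiotic genes 2 rose and 1 fell (21.4% called, against 14.9% of all genes), with 1 higher and 0 lower when the trend was removed; the exporter ABCC1 was at 125.4 ± 9.53 CPM in control and 146.8 ± 3.95 CPM with PFHxA (log2 fold 0.23, adjusted p = 0.0107) and did not pass with the trend removed (adjusted p = 0.283). Among 26 targets of NRF2, the regulator of antioxidant genes, 3 rose and 2 fell (19.2% called, against 14.9% of all genes): TXN, thioredoxin, was at 120.8, 116.8, 116.3 and 141 CPM in control and 93.2, 86.5, 93.02 and 88.2 CPM with PFHxA (log2 fold -0.46, SE 0.085, adjusted p = 0.00463; with the trend removed adjusted p = 0.0267). The NRF2 rises numbered 1 without control a, 1 without control b and 0 without PFHxA b, and with the trend removed 0 were higher and 1 lower. Of 22 carriers of organic anions, fatty acids and drugs 5 rose and 2 fell, among them the transporter ABCA2 (98.6 ± 4.21 CPM in control and 117.2 ± 2.95 CPM with PFHxA, log2 fold 0.25, adjusted p = 0.00277) and the peroxisomal ABCD3 (278.9 ± 7.03 CPM in control and 238.3 ± 13.2 CPM with PFHxA, log2 fold -0.23, adjusted p = 0.00379), with 0 and 0 called once the trend was removed; the rises numbered 3 without control c, 3 without PFHxA b and 3 without PFHxA d. The zinc importers SLC39A10 (74.9 ± 3.54 CPM in control and 59.6 ± 4.03 CPM with PFHxA, log2 fold -0.33, adjusted p = 0.00378) and SLC39A6 (180.5 ± 8.44 CPM in control and 153.5 ± 9.25 CPM with PFHxA, log2 fold -0.23, adjusted p = 0.00633) were the 2 falls among 17 metallothionein and zinc carrier genes, where 0 rose (11.8% called, against 14.9% of all genes) and 0 and 0 were called once the trend was removed.

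Of 21 amino acid carriers 4 rose and 0 fell (19% called, against 14.9% of all genes; 6.08% of all genes rose). The rises numbered 2 without control a, 2 without PFHxA b and 2 without PFHxA c. With the trend removed 3 of the 21 members were higher and 0 lower, against 0.924% and 1.69% of all genes. SLC7A5, the exchanger of large neutral amino acids, was at 142, 143.5, 149 and 143.9 CPM in control and 182.7, 183.5, 191.7 and 182.1 CPM with PFHxA (log2 fold 0.36, SE 0.034, adjusted p = 0.00113). SLC7A1, the arginine and lysine carrier, was at 273.2, 274.7, 277.9 and 248.3 CPM and 324.8, 339.6, 323.5 and 337 CPM (log2 fold 0.30, SE 0.041, adjusted p = 0.00136). PFHxA libraries were tight and above every control in both, and both genes kept their call with the trend removed (log2 folds 0.22 and 0.16). Of 25 targets of ATF4, the transcription factor of amino acid shortage, 4 rose and 1 fell (20% called, against 14.9% of all genes). With the trend removed 3 of the 25 were higher and 0 lower, against 0.924% and 1.69% of all genes. The peptide hormone ADM2 was at 22.9 ± 1.47 CPM in control and 30.9 ± 1.24 CPM with PFHxA (log2 fold 0.43, adjusted p = 0.00138). The stress cytokine GDF15 was at 114.5 ± 3.45 CPM in control and 141 ± 2.71 CPM with PFHxA (log2 fold 0.30, adjusted p = 0.00177). Both passed with the trend removed (adjusted p = 0.0247 and 0.00953). Of 16 serine and one-carbon enzymes, 0 rose and 1 fell (6.25% called, against 14.9% of all genes), and 1 and 0 did with the trend removed. In p53 and apoptosis genes 3 of 33 fell and 1 rose (12.1% called, against 14.9% of all genes), the falls including RRM2B, a p53-induced ribonucleotide reductase subunit (93.5 ± 4.83 CPM in control and 77.8 ± 0.964 CPM with PFHxA, log2 fold -0.26, adjusted p = 0.00304); with the trend removed 0 were higher and 0 lower.

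Interferon-stimulated genes fell more often than they rose, 9 against 1 of 42 tested (23.8% called, against 14.9% of all genes, median log2 fold -0.14, median GC content 47.6%). IFIT1, which binds foreign RNA lacking a host cap mark, was at 207, 201, 190.5 and 232.3 CPM in control and 160.7, 153.5, 161.5 and 164.1 CPM with PFHxA (log2 fold -0.38, SE 0.057, adjusted p = 0.00187). IFIT5, of the same family, was at 38.99, 43.1, 41.02 and 41.5 CPM and 35.2, 33.6, 34.9 and 32.5 CPM (log2 fold -0.27, SE 0.051, adjusted p = 0.0044). The PFHxA libraries of IFIT1 lay within a narrow range below all controls. IFIT1 was lower with the trend removed (adjusted p = 0.0162) and IFIT5 did not pass (adjusted p = 0.559); 4 members were lower and 0 higher. The interferon-stimulated response element is the sequence bound by interferon-activated factors. It was sought as GAAA, any 2 bases and GAAA, on both strands, in the 250 bases before the start in RefSeq promoters (GRCh38.p14). It occurred in 18 of 32 interferon-stimulated genes with a promoter in the table, among them 6 of the 7 members that fell and had a promoter. Over all 27305 promoters the share was 3.07%, and over those of tested genes 2.23%. The 150 bases before the start of IFIT1 (chr10:89392473-89392622, plus strand) and IFIT5 (chr10:89414418-89414567, plus strand) are shown with the matches in capitals, which here read on the opposite strand; each has 2.
IFIT1: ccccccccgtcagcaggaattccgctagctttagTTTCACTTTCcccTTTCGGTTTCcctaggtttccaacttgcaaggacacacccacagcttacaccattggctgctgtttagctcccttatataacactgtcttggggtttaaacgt
IFIT5: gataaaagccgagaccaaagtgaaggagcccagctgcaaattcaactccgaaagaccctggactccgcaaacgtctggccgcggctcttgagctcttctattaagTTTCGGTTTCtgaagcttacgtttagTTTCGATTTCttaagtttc

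Spindle genes can be set beside the same view. Many genes of mitosis carry a cell-cycle genes homology region near the start, sought here as TTTGAA or TTTAAA on both strands. A match was found in 26 of 43 spindle and kinetochore genes, in 22.1% of all promoters in the table and in 14.2% of those of tested genes. Of the 19 members that fell and had a promoter, 13 held one. CENPE (chr4:103198344-103198493, minus strand) has 2 adjoining matches in the 150 bases shown and KIF15 (chr3:44761644-44761793, plus strand) has 1, in capitals. NDC80, which also fell, has 0 in the 250 bases and is not shown. For ATF4, TGATGNAA occurred in 4 of 21 targets, in 3.19% of all promoters and in 1.39% of those of tested genes, and in 0 of the 4 targets that rose. Matches are descriptions of the letters and were not tested as sites.
CENPE: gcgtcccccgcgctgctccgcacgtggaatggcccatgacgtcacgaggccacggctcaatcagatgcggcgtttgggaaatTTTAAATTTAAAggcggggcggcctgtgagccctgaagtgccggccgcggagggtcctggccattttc
KIF15: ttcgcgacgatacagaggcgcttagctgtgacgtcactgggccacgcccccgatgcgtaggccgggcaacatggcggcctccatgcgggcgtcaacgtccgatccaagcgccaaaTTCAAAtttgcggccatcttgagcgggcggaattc

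NF-kB, cytokine and chemokine genes were mixed, with 4 rises and 3 falls among 37 (18.9% called, against 14.9% of all genes; rises numbered 2 without control c). CCL20, which attracts lymphocytes and dendritic cells to mucosa, was at 16.1, 15.9, 17.03 and 17.1 CPM in control and 12.6, 11.2, 9.22 and 10.5 CPM with PFHxA (log2 fold -0.60, SE 0.092, adjusted p = 0.00188). CSF1, the macrophage growth factor, was at 490.1 ± 18.99 CPM in control and 559.2 ± 10.2 CPM with PFHxA (log2 fold 0.19, adjusted p = 0.0104). Neither passed with the trend removed (adjusted p = 0.108 and 0.339), where 0 members were higher and 0 lower.

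Called signalling genes were mostly higher. 10 of 41 immediate early and MAPK feedback genes rose and 0 fell (24.4% called, against 14.9% of all genes, median log2 fold 0.16, median GC content 53.9%). JUN, an AP-1 subunit, was at 49.95, 49.9, 47.6 and 48.6 CPM in control and 62.3, 65.7, 65.4 and 63.6 CPM with PFHxA (log2 fold 0.39, SE 0.053, adjusted p = 0.00137), and its relative JUND was at 226.1 ± 3.77 CPM in control and 262.5 ± 5.57 CPM with PFHxA (log2 fold 0.21, adjusted p = 0.00238). JUN kept its call with the trend removed (adjusted p = 0.0105) and was the 1 member called higher there; JUND did not pass (adjusted p = 0.103). The rises numbered 5 without control a and 6 without control d. In the TGF-beta, BMP and YAP list 8 of 38 rose and 2 fell (26.3% called, against 14.9% of all genes), and in the second fit 3 were higher and 1 lower. SKI, a repressor of SMAD signalling, was at 163.6 ± 9.75 CPM in control and 193.6 ± 4.72 CPM with PFHxA (log2 fold 0.24, adjusted p = 0.00384) and did not pass with the trend removed (adjusted p = 0.238).

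NOTCH1 and NOTCH3, receptors of the Notch pathway, rose, in a list with 8 rises and 1 fall among 29 (31% called, against 14.9% of all genes). NOTCH1 was at 553.8, 563.8, 600.2 and 504.6 CPM in control and 744.4, 729.7, 705.2 and 698.2 CPM with PFHxA (log2 fold 0.37, SE 0.056, adjusted p = 0.00177). NOTCH3 was at 70.7, 72.8, 75.4 and 64.2 CPM and 96.3, 92.1, 88.5 and 97.5 CPM (log2 fold 0.40, SE 0.057, adjusted p = 0.00147). Both stood above every control and kept their call with the trend removed at reduced size (log2 folds 0.16 and 0.19), and 3 members were higher there. Of 38 Wnt pathway genes 5 rose and 0 fell (13.2% called, against 14.9% of all genes; 3 without control d, 3 without PFHxA b and 3 without PFHxA d); the receptors FZD2 and FZD7 were at 190.1 ± 6.03 CPM in control and 224.7 ± 7.34 CPM with PFHxA (log2 fold 0.24, adjusted p = 0.0045) and at 42.6 ± 2.01 CPM in control and 50.8 ± 1.96 CPM with PFHxA (log2 fold 0.25, adjusted p = 0.014), and 0 were called with the trend removed. Guidance genes, the semaphorins, plexins, ephrins and their receptors, had 12 rises and 0 falls among 54 (22.2% called, against 14.9% of all genes, at a median GC content of 58.7%). The semaphorin receptor PLXNA2 was at 563.9 ± 38.8 CPM in control and 688.8 ± 8.63 CPM with PFHxA (log2 fold 0.29, adjusted p = 0.00269) and the secreted guidance factor SLIT3 at 406.4 ± 31.6 CPM in control and 508.9 ± 7.67 CPM with PFHxA (log2 fold 0.32, adjusted p = 0.00275). SLIT3 passed with the trend removed (adjusted p = 0.036) and PLXNA2 did not (adjusted p = 0.059), with 1 member higher and 0 lower.

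Of 35 basement membrane and matrix glycoproteins 13 rose and 0 fell (median log2 fold 0.17, median GC content 51.7%). LAMA5, a laminin chain of epithelial basement membranes, was at 161.5, 163.1, 170.4 and 159.3 CPM in control and 214.6, 205.4, 201.7 and 215.3 CPM with PFHxA (log2 fold 0.36, SE 0.042, adjusted p = 0.00113). AGRN, the heparan sulfate proteoglycan agrin, was at 227.2, 242.3, 221.3 and 221.4 CPM and 291.6, 294.7, 287.6 and 288.4 CPM (log2 fold 0.35, SE 0.043, adjusted p = 0.00113). The PFHxA libraries of each varied by little and lay above all controls. Both missed the threshold once the trend was removed (adjusted p = 0.0958 and 0.0594), and 4 members were higher. LAMA5 shares exon sequence with ADRM1 on the opposite strand. Of 29 collagen chains 7 rose and 0 fell (24.1% called, against 14.9% of all genes, at a median GC content of 61.1%). Among them were COL4A2 of basement membranes (41.3 ± 2.37 CPM in control and 51.7 ± 1.78 CPM with PFHxA, log2 fold 0.33, adjusted p = 0.00219) and COL6A1 (360 ± 23.7 CPM in control and 417.9 ± 3.08 CPM with PFHxA, log2 fold 0.22, adjusted p = 0.00764). With the trend removed 1 collagen chain was higher, and neither COL4A2 nor COL6A1 passed (adjusted p = 0.122 and 0.326).

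Of 30 matrix-modifying enzymes and inhibitors 5 rose and 2 fell (23.3% called, against 14.9% of all genes). TIMP3, an inhibitor of metalloproteinases, was at 780.3, 766.7, 747.1 and 661.5 CPM in control and 826.7, 884.7, 886.1 and 889.6 CPM with PFHxA (log2 fold 0.24, SE 0.049, adjusted p = 0.00704; with the trend removed adjusted p = 0.0267), and P4HA1, which hydroxylates collagen, was at 69.3 ± 5.56 CPM in control and 54.2 ± 2.44 CPM with PFHxA (log2 fold -0.35, adjusted p = 0.00258). The rises numbered 2 without control d, 3 without PFHxA b and 2 without PFHxA d, and 2 were higher and 0 lower with the trend removed. The integrin subunits ITGA5 and ITGA3, receptors for fibronectin and laminin, were at 122.7, 125.1, 123.7 and 120.3 CPM in control and 134.7, 155.3, 137.3 and 147.4 CPM with PFHxA (log2 fold 0.22, SE 0.047, adjusted p = 0.00757) and at 24.9 ± 2.401 CPM in control and 31.9 ± 2.24 CPM with PFHxA (log2 fold 0.36, adjusted p = 0.00824), the 2 rises among 18 with 0 falls (11.1% called, against 14.9% of all genes) and 0 called with the trend removed. In heparan sulfate synthesis 3 of 27 rose and 1 fell (14.8% called, against 14.9% of all genes): B3GALT6, which builds the linker of the chain, was at 53.98 ± 1.9 CPM in control and 61.7 ± 0.837 CPM with PFHxA (log2 fold 0.19, adjusted p = 0.00648) and the sulfotransferase HS2ST1 at 119.9 ± 2.43 CPM in control and 108.1 ± 1.21 CPM with PFHxA (log2 fold -0.15, adjusted p = 0.0137). The difference of HS2ST1 was -0.0035 with the trend removed (adjusted p = 0.98), and 0 members were higher and 0 lower there. The rises of this list numbered 5 without control c and 1 without PFHxA d.

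Large proteins that link actin, intermediate filaments and membranes rose in 17 of 32 cases and fell in 0 (53.1% called), at a median log2 fold of 0.21 and a median GC content of 55.2%. MYH9, nonmuscle myosin, was at 527, 545.3, 562.4 and 492 CPM in control and 643.7, 663.8, 646.8 and 666.6 CPM with PFHxA (log2 fold 0.30, SE 0.046, adjusted p = 0.00197). FLNA, the actin crosslinker filamin A, was at 695.3, 744.8, 731.2 and 630.2 CPM and 874.2, 885.4, 872.7 and 875 CPM (log2 fold 0.32, SE 0.051, adjusted p = 0.00203). All 4 PFHxA libraries exceeded all controls, among which control d was lowest in both. After the trend was removed 2 were higher, and MYH9 and FLNA were at the edge of the threshold (log2 fold 0.12, adjusted p = 0.0509, and 0.12, adjusted p = 0.0511). Of 29 junction genes 2 rose and 0 fell (6.90% called, against 14.9% of all genes; 6.08% of all genes rose). NECTIN2, an adhesion molecule of adherens junctions, was at 76.7 ± 1.79 CPM in control and 90.2 ± 4.17 CPM with PFHxA (log2 fold 0.23, adjusted p = 0.00678) and JUP (plakoglobin), of desmosomes and adherens junctions, at 446.1 ± 10.3 CPM in control and 506 ± 9.91 CPM with PFHxA (log2 fold 0.18, adjusted p = 0.00938); neither passed with the trend removed (adjusted p = 0.119 and 0.277), where 0 were higher and 0 lower.

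The 4 PFHxA libraries did not depart from control to the same extent. The median level of the cohesin and condensin genes, relative to the control mean on the log2 scale, was -0.10, -0.22, -0.19 and -0.22 in PFHxA a to d and -0.0030, 0.025, -0.013 and -0.064 in control a to d. For golgins it was -0.10, -0.24, -0.27 and -0.24 with PFHxA, and for DNA repair genes -0.11, -0.26, -0.20 and -0.20. PFHxA a was the nearest to control in these 3 lists, and no PFHxA library overlapped a control. For mitochondrially encoded genes the values were 0.24, 0.38, 0.38 and 0.35 with PFHxA and 0.16, 0.14, 0.064 and -0.35 in control, with PFHxA a lowest of its group and control d far below the rest. Without PFHxA a, 13 of 21 cohesin and condensin genes and 20 of 48 spindle genes fell, as many as with it, and 14 golgins and 25 repair genes did, against 13 and 22 with it. Without control d, 10 of 35 basement membrane genes and 14 of 32 cytoskeletal linkers rose.

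**Figure D5:**
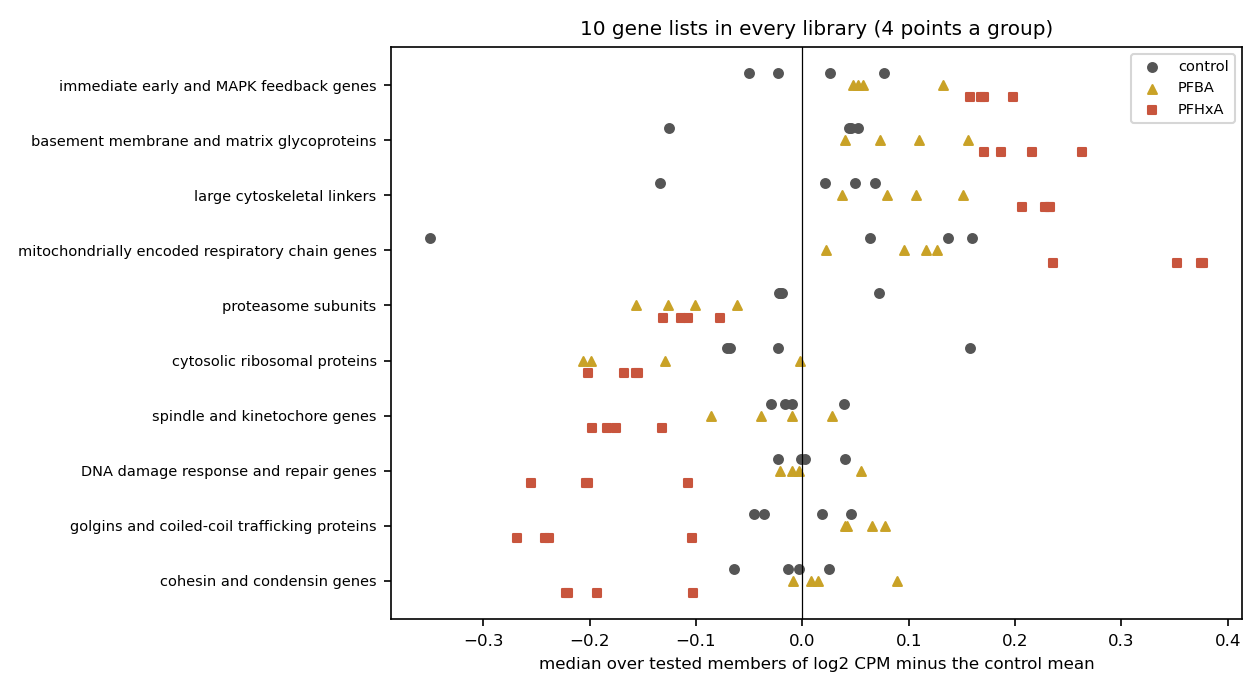
For 10 gene lists, the median over tested members of log2 CPM minus the control mean, with 4 points for each of control, PFBA and PFHxA; some points coincide. For cohesin and condensin genes, golgins, DNA repair and spindle genes all PFHxA points lie below those of control and PFBA, and for proteasome and ribosomal protein genes the PFHxA and PFBA points overlap.

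PFBA differs from PFHxA in the length of its fluorinated chain and was given at the same dose for the same time. The libraries of the 2 acids also differed in their slope over transcript GC content. It was -0.065, 0.0042, -0.051 and -0.064 in PFBA a to d and between 0.0706 and 0.104 with PFHxA. Between the 2 acids 1806 genes differed (10.9% of 16554), 636 (3.84%) higher and 1170 (7.07%) lower with PFHxA. The trend-removed fit called 146 genes (0.882%). The counts by list and the single genes below are from the first fit, in which the trend was not removed. PFHxA minus PFBA and PFHxA minus control share the PFHxA libraries, and the values are given side by side. Of the 21 cohesin and condensin genes 12 were lower and 2 higher with PFHxA than with PFBA, of 48 spindle genes 18 and 1, of 27 golgins 15 and 0, and of 46 repair genes 18 and 1. Of 32 linkers 8 were higher and 0 lower, and of 35 basement membrane glycoproteins 4 and 0. Fewer differed among ribosomal proteins (3 lower and 0 higher of 77), mitochondrial ribosomal proteins (4 and 1 of 77) and proteasome subunits (3 and 1 of 41).

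Single genes show both kinds of relation. CENPE was at 39.4, 34.2, 33.6 and 33.03 CPM in PFBA libraries a to d, far from its PFHxA levels (log2 difference -0.99, interval -1.38 to -0.60, adjusted p = 0.00614; intervals at 95%). ATRX was at 161.5 ± 4.76 CPM with PFBA and lower with PFHxA (log2 difference -0.55, interval -0.71 to -0.40, adjusted p = 0.00136). SLC7A5 was at 149.3, 156.2, 150.7 and 149.7 CPM with PFBA, below all PFHxA libraries (log2 difference 0.29, interval 0.21 to 0.36, adjusted p = 0.00116), and CPT1A at 74.5 ± 2.403 CPM (log2 difference 0.24, interval 0.14 to 0.34, adjusted p = 0.00729). In the first fit PFHxA differed from both other groups for these 4 genes. AHR, by contrast, was at 3.73, 3.02, 3.95 and 3.01 CPM with PFBA, against 3.17, 3.12, 2.63 and 3.46 CPM with PFHxA (log2 difference -0.15, interval -0.53 to 0.24, adjusted p = 0.66). MYO10 was at 3.14 ± 0.492 CPM (log2 difference -0.043, interval -0.39 to 0.30, adjusted p = 0.905) and MRPL1 at 33.4 ± 1.98 CPM (log2 difference -0.13, interval -0.38 to 0.12, adjusted p = 0.517). No difference between the acids passed the test for these 3, and the intervals give the sizes that remain possible. Against control, edgeR called 1 gene with PFBA (0.00604%).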

How the data were processed

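Libraries were made from total RNA and sequenced on an Illumina instrument, per the labels' protocols. The authors deposited whole read counts per Ensembl gene, 1 column per library, from alignments with HISAT2 2.0.4 to GRCh38 (hg38), per the submitters' processing notes. Which program and annotation counted the reads, and whether by strand, is not given in the sources used here. Another 12 columns of sample values in the table were not used. Column prefixes were read as the groups. Total counts were 16941599 to 21508681 in the 8 libraries compared.

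Genes were kept by filterByExpr (minimum count 10, total 15), scaled by TMM, and fitted over all 12 libraries with edgeR 4.0.16 (R 4.3.3; quasi-likelihood, robust, group only), with two-sided F tests and Benjamini-Hochberg adjustment over 16554 genes at 0.05. SE is the log2 fold divided by the square root of F. The second fit gave edgeR an offset for each library from natural splines (5 degrees of freedom each) over GC content and log2 length of the longest GENCODE 29 transcript, which matched 50111 gene identifiers, 94.9% at the same position. Alternatives were other scalings and filters, limma-voom (limma 3.58.1), DESeq2 1.42.0, a 1.2-fold minimum, a block and left-out libraries. The edgeR fit was tested on simulated data. Library measures were compared by an exact permutation test. Promoters are from RefSeq (GRCh38.p14), and 11196 tested genes matched by symbol.

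Members and gene lists were chosen with earlier results of these data known. Pseudogenes were dropped from the lists after their sizes and counts had been seen. Named genes, protein coding in the first 2 sets, are the 10 largest rises and falls among called genes whose groups do not overlap, at 1 CPM or more on average and without a clone or open reading frame symbol (which leaves out C7orf25), the 6 largest each way by the trend-removed fold among genes called in both fits, the 2 members with the smallest p in each list with at least 2 calls, and the most abundant member of each cell type list. Some of these genes are not reported here. Of the 123 named genes, 25 share an exon with another tested gene, 7 of them on the same strand (ACADM, HIF1A, LTB4R, PSMA2, RPL26, RPL36A and ZNF17).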

Additional observations from a re-analysis of the deposited data

Results flagged for a closer look

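In 17 of 256 sets of 4 libraries, 1 library stood apart from the other 3 by Dixon's criterion at 95%, where chance gives about 5%. The share flagged is close to that of chance, and the sets are not independent, since they come from the same libraries. The sets are the levels of the named genes and 5 library measures in control and PFHxA. PFHxA a stood apart most often. CENPE was at 26.3 CPM in PFHxA a and at 14.2 to 15.1 CPM in the other 3, KIF20B was at 66.4 CPM in PFHxA a and at 40.95 to 42.5 CPM in the other 3 and AKAP9 was at 112.2 CPM in PFHxA a and at 63.2 to 70.9 CPM in the other 3. SGO2 was at 13.3 CPM in PFHxA a and at 10.2 to 10.7 CPM in the other 3, TOP2A was at 495.8 CPM in PFHxA a and at 427.7 to 433.2 CPM in the other 3 and SLC39A6 was at 167.3 CPM in PFHxA a and at 148.2 to 150.3 CPM in the other 3. In these 6 genes PFHxA a was nearer to control than the rest of its group. So it was for SKI, at 186.5 CPM against 195.7 to 196.2 CPM, for TIMP3, at 826.7 CPM against 884.7 to 889.6 CPM, and for the mitochondrial share of counts, 11.71% against 12.71% to 12.91%. Control d stood apart in 4 genes: SLC7A1 was at 248.3 CPM in control d and at 273.2 to 277.9 CPM in the other 3, EIF3E was at 760.9 CPM in control d and at 577 to 592.2 CPM in the other 3, MRPL1 was at 59.5 CPM in control d and at 43.9 to 45.3 CPM in the other 3, and IDI1 was at 96.6 CPM in control d and at 86.9 to 88.3 CPM in the other 3. HIF1A was at 240 CPM in control a and at 261.5 to 265.2 CPM in the other 3. DEGS1 was at 28.9 CPM in PFHxA d and at 45.5 to 46.2 CPM in the other 3, SLC7A5 was at 191.7 CPM in PFHxA c and at 182.1 to 183.5 CPM in the other 3, and P4HA1 was at 50.6 CPM in PFHxA b and at 55.03 to 55.9 CPM in the other 3. Whether PFHxA a and control d depart from their groups beyond chance was not tested.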

How the results depend on the processing

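The counts of 1006 rises and 1460 falls stayed within 1.5 times under RLE and upper-quartile scaling, without a filter or with a stricter one, in a fit of the 8 libraries, and with limma-voom and DESeq2, between 1950 and 2813 calls in all. Of the settings that kept all libraries, 2 moved them further: against a minimum change of 1.2-fold 8 genes passed (0 higher, 8 lower), and with the GC and length trend removed 433 (153 higher, 280 lower). A further 2 fits chosen after the data were seen gave 223 calls (73 higher, 150 lower) with the trend removed and control d left out, and 108 (35 higher, 73 lower) with PFHxA b left out instead. When 1 library was left out, the calls lay between 1523 and 2308, the rises between 644 and 913 and the falls between 879 and 1395, lowest without PFHxA b. Moves of over 1.5 times came without PFHxA b (1523 calls, 644 higher and 879 lower), in the falls without PFHxA c (954) and in the rises without PFHxA d (660). The columns carry letters and no label numbers. A replicate block for the letter gave 2441 calls (973 higher, 1468 lower). Same-lettered libraries of control and PFHxA correlated by -0.09 to 0.055 only, and 1 of the 4 letters (a) correlated best with its own. No sign of pairing by letter was thus seen, though a weak shared effect could escape this check. Of the 116 named genes called, all kept their call under both scalings, 106 under DESeq2, which gave no adjusted p for others, 108 to 113 when 1 library was left out, 57 with the trend removed and 3 against the 1.2-fold minimum. Among the named genes, removing the trend reversed FASN (-0.006, and -0.007 also without PFHxA b) and HIF1A (0.014, 0.019 also without control d and 0.024 also without PFHxA b). The PFHxA minus PFBA difference reversed likewise for EIF1AX (0.081) and HS2ST1 (0.018). In the 150 bases before the start instead of 250, the ATF4 site was found in 1.93% of promoters, the cell-cycle genes homology region in 12.8% and the interferon-stimulated response element in 1.79%. In counts simulated at the depth of these libraries (16295 genes, 50 changed per size), 20% of the smallest changes, under 1.5-fold, 62% of 1.5-fold and 94% of 2-fold changes were recovered. There were 10 false calls, and other depths were not simulated. The simulated counts held 200 changed genes and no trend over GC content or length. The 10 false calls therefore do not measure errors that such a trend could bring into the calls of the real data.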
